A study of Danio rerio with 12 samples.

Results

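The islet hormone and glucose metabolism genes described here were 6 genes, ins, gcga, gcgb, pdx1, pck1 and gck, out of 31261 genes counted in whole zebrafish larvae. They were chosen by name after earlier results of these data were known. Values of these same libraries had drawn attention to them, so that their fold changes are given as a description. No cut-off they passed is read as a test. The 6 genes were found by symbol in the gene name table (ins, ENSDARG00000035350; gcga, ENSDARG00000079296; pdx1, ENSDARG00000002779; pck1, ENSDARG00000013522; gck, ENSDARG00000068006), except that gcgb carried the symbol GCG there (ENSDARG00000040907). All 6 had at least 1 count in each of the 12 libraries and entered every comparison.

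The study asked which transcripts change when the pannexin 1 channel genes are lost. Larvae of 4 lines were collected at 6 days post fertilization (dpf), untreated and, by the labels, in light at that stage, from fish held on a cycle of light and dark, with 3 libraries per line. The lines were the TL control (wild type), a TALEN-edited panx1a knock-out (panx1a-/-), a TALEN-edited panx1b knock-out (panx1b-/-) and a double knock-out (DKO) that lacks both genes. Every library was made from total RNA of a separate pool of whole larvae, so that RNA of the islet came with the RNA of all other tissues, and fewer cells of a type and less RNA per cell cannot be told apart. Each knock-out was represented by a single line, and the panx1b-/- line descended from 1 founder that carried a frameshifting deletion.

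The islet of the zebrafish larva holds beta cells, which make insulin, and alpha cells, which make glucagon, next to somatostatin cells. ins codes for the main insulin of the fish, and gcga and gcgb code for proglucagons. pdx1 codes for a homeodomain transcription factor of the pancreas bud that is kept in beta cells. In the liver, glucagon raises and insulin lowers the transcription of pck1, the cytosolic phosphoenolpyruvate carboxykinase that commits carbon to new glucose, whereas gck, glucokinase, traps glucose inside the hepatocyte and is induced by feeding and insulin. ins has a second point of interest in this series, because it is the next protein-coding gene to panx1b in the RefSeq annotation.

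Library totals ran from 20581029 to 29259122 counts. Levels are given as CPM, counts per 1000000 counts of the library, scaled with the trimmed mean of M values (TMM), and compare 1 gene across libraries, never 2 genes with each other. In the edgeR quasi-likelihood test a gene was called regulated at an adjusted p under 0.05 together with an unadjusted p under 0.001. The 2 genes named PANX1 served as the check of the labels. ENSDARG00000025285 had 11.7 to 14.4 CPM in the TL libraries, 3.85 to 4.80 CPM in the panx1a-/- libraries, 9.10 to 9.84 CPM in the panx1b-/- libraries and 4.08 to 4.35 CPM in the DKO libraries. ENSDARG00000014910 had 4.69 to 6.93 CPM in TL, 7.52 to 8.83 CPM in panx1a-/-, 5.82 to 7.10 CPM in panx1b-/- and 3.65 to 4.75 CPM in DKO larvae. The name table does not say which of the pair is panx1a and which is panx1b, and a frameshift need not lower a transcript. The first gene set the panx1a-/- and DKO libraries apart from the other libraries, with log2 fold changes against TL of -1.61 (SE 0.14) and -1.62 (SE 0.13). In panx1b-/- larvae the value was -0.44 (SE 0.12) for the first gene and 0.15 (SE 0.17) for the second, so that the labels of that line have no such check.

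Insulin transcripts were highest in the panx1a-/- line, and the libraries of the other 3 lines overlapped. The ins count was 27, 25 and 39 in the 3 TL libraries, 63, 58 and 75 in panx1a-/-, 44, 30 and 31 in panx1b-/-, and 31, 22 and 26 in DKO larvae. At counts this low a library carries a large counting error. Scaled for depth, ins was at 1.27 ± 0.12 CPM in TL (SD, n = 3), 2.72 ± 0.40 CPM in panx1a-/-, 1.56 ± 0.38 CPM in panx1b-/- and 1.202 ± 0.210 CPM in DKO larvae. All 3 panx1a-/- libraries, from 2.27 to 2.96 CPM, lay above all 9 others, of which the highest was panx1b-/- library 1 at 2.00 CPM.

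The log2 fold change of ins against TL was 1.09 (SE 0.22) in panx1a-/-, 0.30 (SE 0.26) in panx1b-/- and -0.08 (SE 0.24) in DKO larvae. Against panx1a-/- larvae, DKO larvae had ins lower by a log2 fold change of -1.17 (SE 0.23), again without overlap of the libraries, and against panx1b-/- larvae the value was -0.37 (SE 0.26), with overlap. The levels thus ran from panx1a-/- down through panx1b-/- and TL to DKO, and the last 3 neighbours in that order overlapped. The interaction, which compares the DKO value with the sum of both single knock-out values on the log2 scale, was -1.47 (SE 0.33) for ins.

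**Figure D1:**
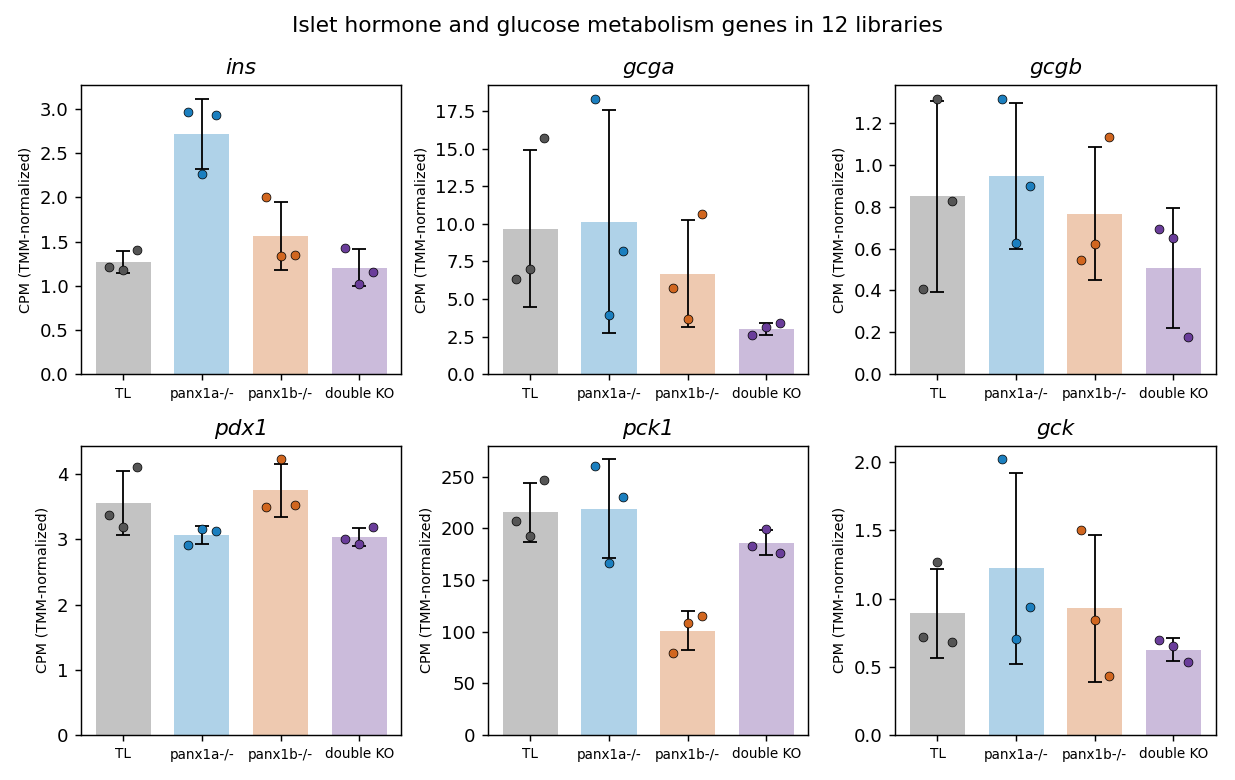
TMM-scaled CPM of the 6 genes in the 4 lines. Points are single libraries, bars are line means and error bars are the SD of 3 libraries. The panx1a-/- libraries are the highest for ins (2.27 to 2.96 CPM), the DKO libraries the lowest for gcga (2.59 to 3.37 CPM) and the panx1b-/- libraries the lowest for pck1 (79.6 to 115 CPM).

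The values of ins that involve panx1a-/- larvae kept their sign and size. Over the 13 alternative fits the log2 fold change between panx1a-/- and TL larvae stayed between 1.02 and 1.21, and that between DKO and panx1a-/- larvae between -1.31 and -1.07. Over 18 alternatives the interaction ran from -1.61 to -1.25. In panx1b-/- against TL larvae the value of 0.30 became 0.07 without panx1b-/- replicate 1.

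pdx1 gave a second readout of the pancreas, and it did not follow ins. Its level was 3.38, 3.19 and 4.11 CPM in the TL libraries, 2.91, 3.16 and 3.13 CPM in panx1a-/-, 3.50, 4.23 and 3.53 CPM in panx1b-/-, and 3.00, 2.92 and 3.19 CPM in DKO larvae. The whole spread of pdx1 over 12 libraries was thus from 2.91 to 4.23 CPM. The panx1a-/- libraries lay just under the TL libraries (log2 fold change -0.22, SE 0.18) and the DKO libraries under the panx1b-/- libraries (-0.30, SE 0.17), and in the other comparisons the libraries overlapped.

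The ratio of ins to pdx1 counts needs no scaling for depth. It was 0.360, 0.368 and 0.342 in the TL libraries, 1.02, 0.716 and 0.938 in panx1a-/-, 0.571, 0.316 and 0.383 in panx1b-/-, and 0.477, 0.349 and 0.361 in DKO larvae. The 3 panx1a-/- ratios lay above all 9 others, and those of TL, panx1b-/- and DKO larvae overlapped. Their means were 0.357 ± 0.013 (SD, n = 3) in TL, 0.890 ± 0.156 in panx1a-/-, 0.423 ± 0.133 in panx1b-/- and 0.396 ± 0.071 in DKO larvae.

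gcga, a glucagon gene, was lowest in DKO larvae, and its other 3 lines overlapped. It had 6.35, 6.99 and 15.7 CPM in TL, 18.3, 3.94 and 8.19 CPM in panx1a-/-, 5.73, 3.69 and 10.6 CPM in panx1b-/-, and 2.59, 3.11 and 3.37 CPM in DKO larvae. The DKO libraries lay below all 9 others and close together, whereas within each of the other lines the highest library was far above the lowest. The coefficient of variation was 53.9% in TL, 72.8% in panx1a-/-, 53.3% in panx1b-/- and 13.2% in DKO larvae.

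For gcga the log2 fold change of DKO larvae was -1.69 (SE 0.32) against TL, -1.73 (SE 0.42) against panx1a-/- and -1.14 (SE 0.32) against panx1b-/- larvae, and these 3 values share the DKO libraries. The single knock-outs differed from TL by 0.04 (SE 0.47) and -0.53 (SE 0.39), less than the spread between their libraries. The sizes rested on the highest library of the other line. Without TL replicate 3 the value of DKO against TL larvae was -1.13, without panx1a-/- replicate 1 that against panx1a-/- larvae was -1.002, and without panx1b-/- replicate 3 that against panx1b-/- larvae was -0.63. All 3 values were negative in every alternative fit.

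gcgb was counted only 4 to 28 times per library. Its level was 0.405, 1.31 and 0.829 CPM in TL, 1.32, 0.625 and 0.901 CPM in panx1a-/-, 0.546, 0.623 and 1.13 CPM in panx1b-/-, and 0.693, 0.650 and 0.177 CPM in DKO larvae. The libraries of all 4 lines overlapped. The log2 fold change of DKO larvae against TL was -0.74 (SE 0.51), of the same sign as that of gcga and not detectable at this depth. Over the 12 libraries gcga and gcgb had a Pearson r of 0.63 on the log2(CPM + 0.5) scale, the highest among pairs of the 6 genes, and ins had an r of 0.43 with gcga and of -0.25 with pdx1. These libraries share depth and line, so the values describe the libraries only.

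Among the other hormone genes of the islet, sst6 differed between panx1b-/- and DKO larvae. Of 6 further hormone genes in the list, which include the second insulin gene insb, the somatostatin genes sst1.2, sst2 and sst6, and a peptide YY gene (PYY), 5 could be tested in the single knock-outs and 6 in DKO larvae. In edgeR 0 were regulated in any of the 3 lines against TL. Over all genes the shares were 5.18% in panx1a-/-, 5.96% in panx1b-/- and 8.09% in DKO larvae. So few genes show no difference from those shares. The count at an unadjusted p under 0.05 was 0 in panx1a-/-, 1 in panx1b-/- and 0 in DKO larvae, and DESeq2 called 0. sst6 had 0.877 ± 0.240 CPM in TL (SD, n = 3), 1.18 ± 0.13 CPM in panx1a-/-, 0.446 ± 0.051 CPM in panx1b-/- and 1.14 ± 0.19 CPM in DKO larvae. It rose by a log2 fold change of 1.35 in DKO against panx1b-/- larvae (edgeR adjusted p = 0.00875), on counts of 9 to 28. It was the 1 call among 5 hormone genes tested there, beside 9.32% of all genes. That call was lost in DESeq2, with the replicate block and without any panx1b-/- library or DKO replicate 1 or 2, at 1.26 to 1.48. insb, at 0 to 6 counts, was below what these libraries can resolve.

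The exocrine pancreas, which surrounds the islet, was measured through 20 enzyme and marker genes. In panx1a-/- larvae 5 of the 20 rose and 1 fell against TL, in panx1b-/- larvae 7 rose and 0 fell, and in DKO larvae 3 rose and 1 fell. The shares of all genes regulated were 5.18%, 5.96% and 8.09% in these 3 comparisons. Their summed level was 4401 to 5576 CPM in TL, 5526 to 6657 CPM in panx1a-/-, 5633 to 8633 CPM in panx1b-/- and 4650 to 7207 CPM in DKO larvae. The sum was thus highest on average in panx1b-/- larvae, where ins overlapped TL. Its part in the ins, gcga and pdx1 levels was not tested.

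Among the genes of glucose metabolism, pck1 was lower in panx1b-/- larvae than in every other line. Whole larvae do not show which tissue its transcripts came from. It had 207, 192 and 247 CPM in the TL libraries, 260, 166 and 230 CPM in panx1a-/-, 79.6, 108 and 115 CPM in panx1b-/-, and 183, 199 and 176 CPM in DKO larvae. The 3 panx1b-/- libraries lay below all 9 others, on 1750 to 2648 counts, and TL, panx1a-/- and DKO libraries overlapped. The log2 fold change against TL was -1.08 (SE 0.15) in panx1b-/-, 0.02 (SE 0.15) in panx1a-/- and -0.21 (SE 0.10) in DKO larvae.

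DKO larvae, which lack panx1b as well, had pck1 higher than panx1b-/- larvae by a log2 fold change of 0.88 (SE 0.13), and lower than panx1a-/- larvae by -0.23 (SE 0.14). Over 13 alternative fits the value of panx1b-/- larvae ran from -1.20 to -0.95 against TL, and that of DKO against panx1b-/- larvae from 0.73 to 0.99. The interaction was 0.86 (SE 0.22).

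gck, the opposite arm of glucose handling to pck1, was counted 10 to 43 times. Its level was 0.720, 1.27 and 0.685 CPM in TL, 2.02, 0.703 and 0.940 CPM in panx1a-/-, 1.502, 0.846 and 0.436 CPM in panx1b-/-, and 0.693, 0.650 and 0.532 CPM in DKO larvae. The DKO libraries lay just under the panx1a-/- libraries, with 0.693 CPM in the highest of the former and 0.703 CPM in the lowest of the latter (log2 fold change -0.93, SE 0.40, and -0.39 without panx1a-/- replicate 1), and overlapped those of the other 2 lines. Against TL the log2 fold change was 0.44 (SE 0.42) in panx1a-/-, 0.08 (SE 0.43) in panx1b-/- and -0.49 (SE 0.34) in DKO larvae, all within the spread between libraries. Without panx1a-/- replicate 1 the first of these was -0.11, and without TL replicate 2 the last was -0.15.

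**Figure D2:**
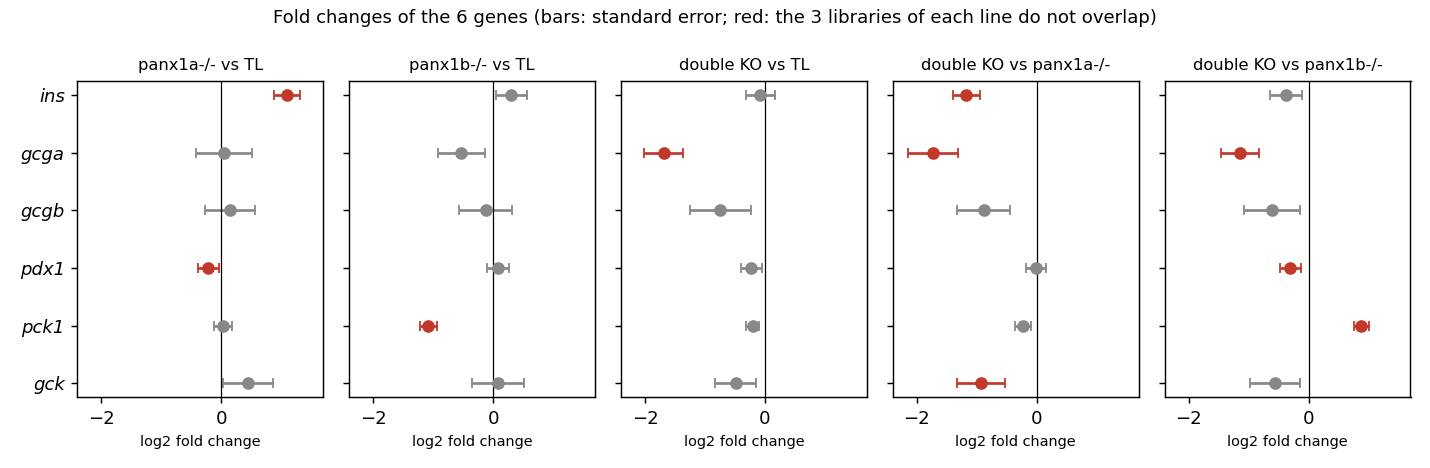
Log2 fold changes of the 6 genes in the 5 pairwise comparisons, with standard errors, zero marked by the vertical line. Red marks the comparisons in which the 3 libraries of each line did not overlap, such as ins at 1.09 in panx1a-/- and pck1 at -1.08 in panx1b-/- larvae against TL.

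Counted together, 1 of the 6 genes was past both cut-offs in each comparison, and a different one from line to line. Against TL it was ins in panx1a-/- larvae, where 5.18% of all genes tested were regulated, pck1 in panx1b-/- larvae (5.96% of all genes) and gcga in DKO larvae (8.09% of all genes). It was ins again in DKO against panx1a-/- larvae (6.34%) and in the interaction (5.33%), and pck1 again in DKO against panx1b-/- larvae (9.32%). In the alternative fits ins passed both cut-offs in 7 of 13 for panx1a-/- against TL. It passed in 9 of 13 for DKO against panx1a-/- larvae and in 11 of 18 for the interaction. gcga passed in 9 of 13 for DKO against TL, and pck1 in 13 of 13 in each of its comparisons named here. Libraries did not overlap for 2 of 6 genes in panx1a-/- against TL (28.4% of all genes), 1 of 6 in panx1b-/- (29.6%), 1 of 6 in DKO against TL (35.4%), 3 of 6 in DKO against panx1a-/- (30.9%) and 3 of 6 in DKO against panx1b-/- larvae (35.7%). Since these contrasts had chosen the genes, nothing is read from the counts or from the passes in the alternative fits. The comparisons also share libraries, the TL libraries in 3 of them.

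The genes beside panx1b were measured to place ins in its chromosomal setting. Of the 19 genes other than ins within 10 genes of panx1b on either side, 13 were matched and tested. In panx1a-/- against TL larvae 2 of the 13 were regulated, both upward, beside 5.18% of all genes. In panx1b-/- larvae edgeR and DESeq2 each called 0 of 13, with 3 at an unadjusted p under 0.05, beside 5.96% of all genes, and in DKO larvae 1 of 13 was regulated, beside 8.09%. Counts this small can be set beside those shares but show no difference from them. The panx1a gene lies on another chromosome.

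The 2 genes that rose with ins in panx1a-/- larvae were fxyd2 and tmprss13b, 3 and 5 genes from panx1b on the side of ins. tmprss13b, a transmembrane serine protease gene, had 2.97, 3.85 and 4.33 CPM in TL, 7.94, 8.87 and 7.29 CPM in panx1a-/-, 4.91, 4.14 and 4.27 CPM in panx1b-/-, and 3.79, 2.69 and 2.88 CPM in DKO larvae. Its 3 panx1a-/- libraries lay above all 9 others, as those of ins did. It rose by a log2 fold change of 1.105 (SE 0.17) against TL (edgeR adjusted p = 0.0023), fell by 1.36 in DKO against panx1a-/- larvae (edgeR adjusted p = 0.000231) and had an interaction of -1.61 (edgeR adjusted p = 0.000663). Each of the 3 calls held in every alternative fit.

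fxyd2, which codes for a small regulator of the sodium pump, had 23.1, 21.5 and 23.1 CPM in TL, 29.8, 37.4 and 29.3 CPM in panx1a-/-, 30.2, 30.8 and 24.8 CPM in panx1b-/-, and 27.6, 24.3 and 21.5 CPM in DKO larvae. It rose by 0.51 (SE 0.11) in panx1a-/- larvae (edgeR adjusted p = 0.0166), a call that was lost with the replicate block and without any 1 of the 6 libraries, at 0.39 to 0.57. It stood at 0.35 in panx1b-/- larvae (edgeR adjusted p = 0.0584), with no overlap with TL, and in DKO larvae at 0.12 (edgeR adjusted p = 0.467).

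The PANX1 gene ENSDARG00000014910 had its panx1a-/- libraries, at 7.52 to 8.83 CPM, above every other library, as ins and tmprss13b did. Its log2 fold change was 0.51 in panx1a-/- against TL larvae (edgeR adjusted p = 0.0809). In DKO against panx1a-/- larvae it was -1.01 (edgeR adjusted p = 0.000959). The name table does not say whether this gene is panx1b. The genes flanking panx1b and ins, epd and arhgap35b, did not share this pattern. epd, an ependymin gene on the other side of panx1b, had log2 fold changes against TL of -0.10 in panx1a-/-, 0.16 in panx1b-/- and 0.00 in DKO larvae, and its libraries overlapped in all 3 comparisons. arhgap35b, directly beyond ins, had 0.02 in panx1a-/- (edgeR adjusted p = 0.938), 0.39 in panx1b-/- (edgeR adjusted p = 0.0867, no overlap) and 0.32 in DKO larvae (edgeR adjusted p = 0.151). apoa1a, the apolipoprotein A-I gene, was the 1 regulated gene of DKO larvae and fell by 0.63 (edgeR adjusted p = 0.0109), a call lost with scaling to library size alone, in the fit of all 12 libraries and without TL replicate 2 or 3 or any DKO library, at -0.74 to -0.50.

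**Figure D3:**
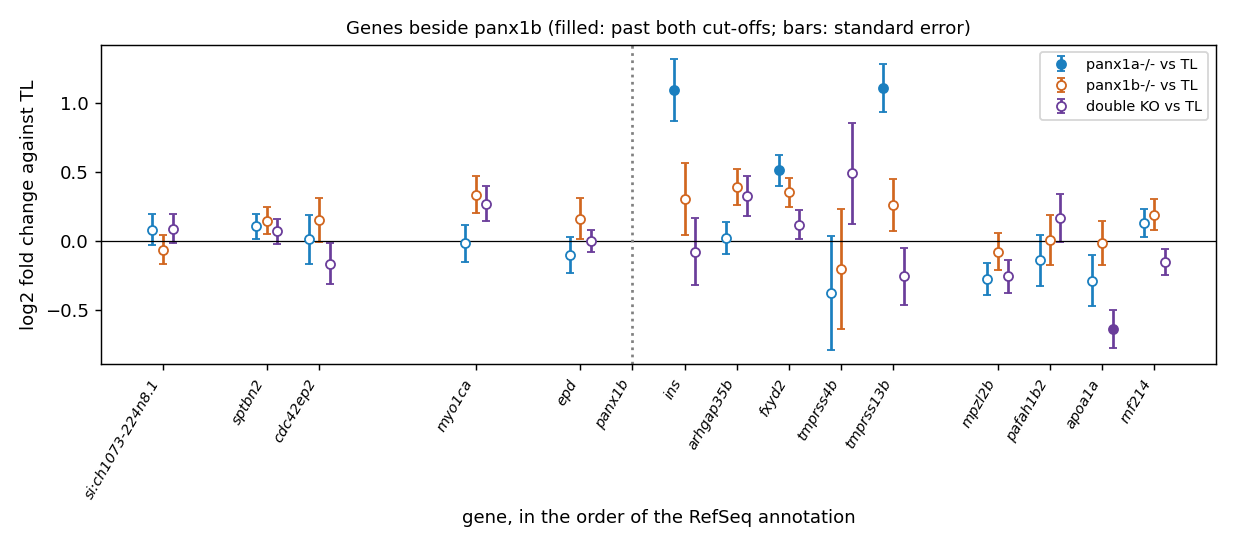
Log2 fold changes against TL of the tested genes within 10 genes of panx1b (dotted line), in RefSeq gene order, with standard errors. Filled points passed both cut-offs. In panx1a-/- larvae (blue) ins at 1.09 and tmprss13b at 1.105 stand highest, with arhgap35b between them at 0.02. No point of the panx1b-/- larvae (orange) is filled.

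In wider windows the counts around panx1b differed by comparison. Within 50 genes, 2 of 71 tested genes were regulated in panx1a-/- against TL larvae, or 2.82% beside 5.18% of all genes, and DESeq2 called 4. In panx1b-/- larvae 7 of 71 were regulated, or 9.86% beside 5.96%, and in DKO larvae 6 of 68, or 8.82% beside 8.09%. DKO and panx1a-/- larvae differ by label in panx1b, and between them 11 of 67 genes were regulated, or 16.4% beside 6.34% of all genes. Within 25 genes that count was 6 of 31, or 19.4%. The interaction gave 9 of 66 genes within 50, or 13.6% beside 5.33%. DKO and panx1b-/- larvae both lack panx1b by label, and between them 9 of 67 genes were regulated, or 13.4% beside 9.32%. Within 50 genes of panx1a, 8 of 58 genes (13.8%) were regulated in panx1a-/- and 8 of 58 (13.8%) in panx1b-/- larvae against TL. There, DKO larvae gave 9 of 58 (15.5%) against TL and 4 of 59 (6.78%) against panx1a-/- larvae. Between DKO and panx1b-/- larvae, which differ by label in panx1a, 10 of 58 (17.2%) were regulated there, beside 9.32% of all genes. None of these shares was tested against that of all genes.

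In the lines edited at panx1b, ins is carried on the edited chromosome segment. There, loss of the gene and variants linked to the edited allele cannot be told apart. This bears on the -1.17 of ins in DKO against panx1a-/- larvae, where the libraries did not overlap. It also bears on panx1b-/- and DKO larvae against TL, where they overlapped. The 1.09 of ins in panx1a-/- against TL larvae comes from lines not edited at panx1b. Whether panx1a-/- and TL larvae differ in variants at this segment was not tested.

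Around panx1a, on the other chromosome, 1 of 18 tested genes within 10 genes was regulated in panx1a-/- larvae (beside 5.18% of all genes), 4 in panx1b-/- larvae (beside 5.96%) and 1 in DKO larvae (beside 8.09%). The claudin gene cldne rose by 0.68 in panx1a-/- (edgeR adjusted p = 0.00341) and by 0.60 in panx1b-/- larvae (edgeR adjusted p = 0.00611). taf15 rose by 0.59 in panx1b-/- (edgeR adjusted p = 0.0103) and by 0.51 in DKO larvae (edgeR adjusted p = 0.00598), and stood at 0.50 in panx1a-/- larvae, which did not pass. wdr53 fell by 1.00 (edgeR adjusted p = 0.000516) and rsrc1 fell by 0.54 (edgeR adjusted p = 0.0162) in panx1b-/- larvae. Of these 6 calls, those of wdr53 and of cldne in panx1a-/- larvae held in every alternative fit. In panx1b-/- larvae the call of cldne was lost without TL replicate 2 or 3 or panx1b-/- replicate 1, at 0.48 to 0.66, that of taf15 without TL replicate 1 or 3 or panx1b-/- replicate 1, at 0.45 to 0.65, and that of rsrc1 with scaling to library size alone, with another filter on low counts and without TL replicate 1 or 3 or panx1b-/- replicate 1 or 2, at -0.66 to -0.49. In DKO larvae that of taf15 was lost in the fit of all 12 libraries and without TL replicate 1 or 3 or DKO replicate 2 or 3, at 0.46 to 0.59.

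The genes whose pattern over the 12 libraries was most like that of each gene were ranked by Pearson r of log2(CPM + 0.5) among about 20060 genes. For ins they were LPAR3 (r = 0.96), DSP (0.95) and ahnak (0.95). For gcga they were MMP9 (0.97), MOXD1 (0.96) and tnfaip2b (0.95), and for gcgb BAG3 (0.89), RGS2 (0.86) and DPH5 (0.86). For pdx1 they were UBE2A (0.93), SELENOT (0.90) and MBD3 (0.89). For pck1 they were casp10 (0.97), GCH1 (0.96) and ly6m3 (0.95), and for gck ERC1 (0.94), SLC17A9 (0.83) and crlf1a (0.83). No islet hormone or glucose metabolism gene of the lists was among them.

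The transcription factors of the islet were compared next, 19 other than pdx1. In panx1a-/- larvae edgeR and DESeq2 each called 0 of 19 against TL, with 1 at an unadjusted p under 0.05, beside 5.18% of all genes in edgeR. In panx1b-/- larvae MAFA, a beta-cell activator of insulin transcription in mammals, fell by 0.66 (SE 0.12, edgeR adjusted p = 0.00657), and 2 genes named SOX4 rose, by 0.76 (SE 0.13, ENSDARG00000098834) and 0.70 (SE 0.16, ENSDARG00000004588). In DKO larvae NEUROD1, a factor of both islet and neurons, rose by 0.87 (SE 0.13, edgeR adjusted p = 0.00157), as did SOX4 (ENSDARG00000004588) by 0.69. Of the 19, 2 rose and 1 fell in panx1b-/- larvae, and 2 rose and 0 fell in DKO larvae. Over all genes 5.96% and 8.09% were regulated in these comparisons. The NEUROD1 call held in every alternative fit. The others were lost without TL replicate 3, MAFA also without panx1b-/- replicate 1 or 2 (-0.75 to -0.59), and SOX4 (ENSDARG00000004588) also without TL replicate 1 and without replicate 2 or 3 of the knock-out line, at 0.52 to 0.83 in panx1b-/- and 0.60 to 0.82 in DKO larvae. In the median the list stood at -0.08 in panx1a-/-, 0.11 in panx1b-/- and 0.16 in DKO larvae, beside -0.01, 0.01 and 0.00 over all genes. Whole larvae do not show which tissue the MAFA, SOX4 and NEUROD1 transcripts came from, so these values are not read as changes of the islet.

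Among 21 genes of hormone processing and release, kcnj11l, a potassium channel gene, fell by 0.73 in panx1a-/- larvae (edgeR adjusted p = 0.0156), a call lost with scaling to library size alone, with the replicate block and without TL replicate 2 or 3 or any panx1a-/- library (-0.83 to -0.53), and SCGN, the secretagogin gene, rose by 0.70 in DKO larvae (edgeR adjusted p = 0.0041), a call lost without DKO replicate 1 alone, at 0.65. edgeR called 0 of the 21 in panx1b-/- larvae, beside 5.96% of all genes, with 3 at an unadjusted p under 0.05, and DESeq2 called 1. kcnj11l had 13.95 to 20.7 CPM in TL, 9.10 to 10.8 CPM in panx1a-/- and 9.28 to 11.6 CPM in panx1b-/- larvae. Both single knock-outs thus lay below every TL library, and DKO larvae, at 12.1 to 15.3 CPM, overlapped TL. SCGN had 6.03 to 7.36 CPM in TL and 10.3 to 11.97 CPM in DKO larvae. It also lay above every TL library in panx1a-/- (7.79 to 9.998 CPM) and panx1b-/- larvae (8.74 to 10.5 CPM). The receptors of the islet hormones and the insulin signalling genes gave 1 of 24 genes in each line against TL. Over all genes the shares were 5.18% in panx1a-/-, 5.96% in panx1b-/- and 8.09% in DKO larvae. INSR (ENSDARG00000011948), an insulin receptor, rose by 0.41 in panx1a-/- (edgeR adjusted p = 0.0149) and by 0.39 in DKO larvae (edgeR adjusted p = 0.00879), and FOXO1 (ENSDARG00000099555), the forkhead factor that insulin holds out of the nucleus, fell by 0.49 in panx1b-/- larvae (edgeR adjusted p = 0.00541). The INSR call was lost in panx1a-/- larvae with the replicate block and without any TL library or panx1a-/- replicate 2 or 3, at 0.37 to 0.44, in DKO larvae without any 1 of the 6 libraries, at 0.34 to 0.43, and that of FOXO1 without TL replicate 1 or 3, at -0.47.

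In gluconeogenesis, the pathway of pck1, another enzyme gene was lower in panx1b-/- larvae and others were higher in DKO larvae. FBP2, a fructose bisphosphatase of muscle in mammals, had 14.4 ± 3.5 CPM in TL (SD, n = 3), 11.7 ± 1.0 CPM in panx1a-/-, 5.12 ± 0.58 CPM in panx1b-/- and 7.68 ± 2.47 CPM in DKO larvae. It fell by 1.48 (SE 0.18) in panx1b-/- against TL (edgeR adjusted p = 0.000469). Of the 12 genes tested other than pck1 it was the 1 regulated gene, beside 5.96% of all genes. In panx1a-/- larvae edgeR and DESeq2 each called 0 of 13, with 2 at an unadjusted p under 0.05, beside 5.18% of all genes in edgeR.

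In DKO against TL larvae 3 of the 13 rose and 0 fell, beside 8.09% of all genes regulated, while pck1 overlapped TL. The liver fructose bisphosphatases rose, fbp1b by 0.84 (SE 0.09), from 141 ± 12 to 252 ± 19 CPM (SD, n = 3), and fbp1a by 0.76 (SE 0.12), from 48.3 ± 4.5 to 82.0 ± 14.9 CPM. g6pc1a.1, a glucose 6-phosphatase that releases glucose from the liver, rose by 0.99 (SE 0.18), from 3.01 ± 0.48 to 5.99 ± 0.98 CPM, a call that was lost without DKO replicate 1, at 0.86. Against panx1b-/- larvae fbp1b rose by 1.00 (SE 0.12), fbp1a by 0.78 (SE 0.15) and G6PC1 (ENSDARG00000013721) by 0.50 (SE 0.10), of which the last was lost without panx1b-/- replicate 1 or 2 or DKO replicate 2 or 3, at 0.42 to 0.57. The other members did not pass, and the median of the list was -0.07 in DKO against TL, beside 0.00 over all genes.

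**Figure D4:**
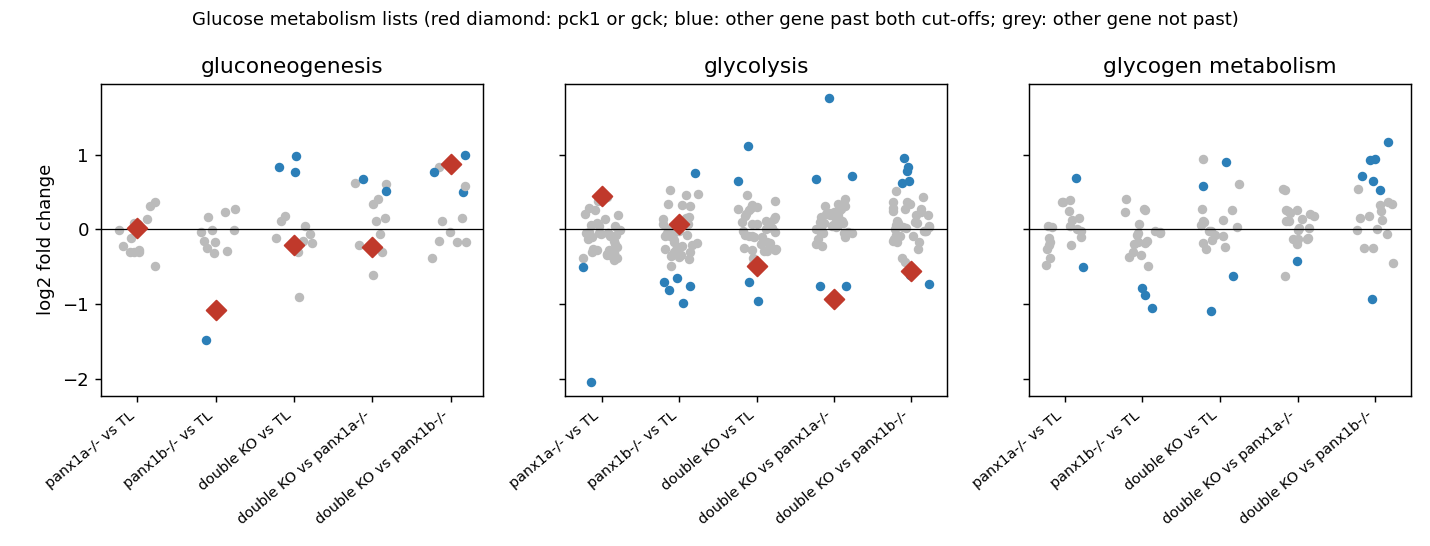
Log2 fold changes of the genes of gluconeogenesis, glycolysis and glycogen metabolism in the 5 pairwise comparisons. Red diamonds are pck1 (gluconeogenesis) and gck (glycolysis), blue points are other genes past both cut-offs and grey points are the rest. In panx1b-/- against TL larvae the blue points lie mainly below zero (FBP2 at -1.48, GYG1 at -1.05), and in DKO against panx1b-/- larvae mainly above it.

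Glycolysis and glycogen metabolism gave the same direction in panx1b-/- larvae for most of the genes that passed. Of 42 glycolysis genes other than gck, 5 fell and 1 rose in panx1b-/- against TL, beside 5.96% of all genes regulated. LDHB, a lactate dehydrogenase, fell by 0.99 (SE 0.10), from 441 ± 20 to 221 ± 18 CPM (SD, n = 3), PFKM (ENSDARG00000014179), a phosphofructokinase, fell by 0.81 (SE 0.16), and PKM (ENSDARG00000099860), a pyruvate kinase, fell by 0.76 (SE 0.13). ldhbb, another lactate dehydrogenase, rose by 0.75 (SE 0.17), on 14.4 ± 3.3 CPM. The calls of LDHB and PKM held in every alternative fit. That of PFKM was lost without TL replicate 1 or 3 or panx1b-/- replicate 1 or 3, at -0.97 to -0.67, and that of ldhbb in 8 of 13, at 0.55 to 0.84. The other gene named PFKM (ENSDARG00000060797) did not pass and went the other way. It had 8.17 to 10.5 CPM in TL and 12.4 to 14.2 CPM in panx1b-/- larvae.

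Of 21 genes of glycogen metabolism 3 fell in panx1b-/- larvae and 0 rose, beside 5.96% of all genes regulated. GYG1 (ENSDARG00000059391), a glycogenin that primes the polymer, fell by 1.05 (SE 0.15), from 158 ± 29 to 75.6 ± 14.2 CPM (SD, n = 3), and PYGM (ENSDARG00000055518), a muscle glycogen phosphorylase, fell by 0.78 (SE 0.14). The GYG1 call held in every alternative fit, and that of PYGM was lost without TL replicate 3 or panx1b-/- replicate 1 or 3, at -0.94 to -0.65. LDHB, FBP2, GYG1 and PYGM stood lowest in panx1b-/- larvae, as pck1 did. FBP2 differed from pck1 in DKO larvae. Its DKO libraries, at 6.21 to 10.5 CPM, lay below every TL library (11.6 to 18.4 CPM), whereas those of pck1 overlapped TL.

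In DKO against panx1b-/- larvae the same lists gave 5 genes up and 2 down of 42 in glycolysis, and 6 up and 1 down of 21 in glycogen metabolism. Over all genes 9.32% were regulated there. LDHB rose by 0.96 (SE 0.11), PKM by 0.84 (SE 0.11) and GYG1 by 1.18 (SE 0.13, edgeR adjusted p = 9.08e-05), and the glycogen synthase of the liver, GYS2, by 0.94 (SE 0.15), all in every alternative fit. The DKO level of GYG1 was 171 ± 16 CPM (SD, n = 3), close to TL, whereas that of GYS2, 30.9 ± 7.3 CPM against 16.5 ± 1.5 CPM in TL, was above it. Against TL, DKO larvae had 2 glycolysis genes up and 2 down, beside 8.09% of all genes regulated. ldhbb rose by 1.12 (SE 0.12), PKLR by 0.65 (SE 0.12), HK2, a hexokinase, fell by 0.96 (SE 0.10) and PFKFB4 fell by 0.71 (SE 0.10), and of these only the PKLR call was lost, without DKO replicate 1 or 3, at 0.52 to 0.75. In glycogen metabolism GYS2 rose by 0.90 and UGP2 by 0.58, and PHKG1 (ENSDARG00000030604) fell by 1.096 and PHKG2 fell by 0.62. GYS2 held in every alternative fit. The calls of the other 3 were lost without DKO replicate 1 or 2, UGP2 also in the fit of all 12 libraries (0.49 to 0.67), and the phosphorylase kinase genes PHKG1 (-1.26 to -0.99) and PHKG2 (-0.74 to -0.55) also without TL replicate 3.

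In panx1a-/- larvae, where ins was high, 2 of 42 genes fell in glycolysis and 2 of 21 were regulated in glycogen metabolism, beside 5.18% of all genes. GPI (ENSDARG00000103826), a glucose 6-phosphate isomerase, fell by 2.04 (SE 0.23, edgeR adjusted p = 0.000302), from 16.7 ± 4.2 to 4.10 ± 1.27 CPM (SD, n = 3), and LDHA fell by 0.50 (SE 0.11). The GPI call held in every alternative fit and that of LDHA was lost with scaling to library size alone, without TL replicate 2 or 3 and without panx1a-/- replicate 1 or 2, at -0.60 to -0.41. The other gene named GPI (ENSDARG00000012987) did not pass, at 89.7 ± 6.2 CPM in TL and 74.6 ± 4.5 CPM in panx1a-/- larvae. In glycogen metabolism UGP2 rose by 0.69 and PHKG2 fell by 0.50, of 21. UGP2 was lost without any TL library or panx1a-/- replicate 1 or 3, at 0.51 to 0.82, and PHKG2 with the replicate block and without TL replicate 1 or 3 or panx1a-/- replicate 2 or 3, at -0.54 to -0.47.

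Among glucose transporters, SLC2A1 (ENSDARG00000001437), the basal transporter of many tissues, fell by 0.96 (SE 0.11) in panx1a-/- larvae, from 31.4 ± 2.7 to 16.1 ± 1.3 CPM (SD, n = 3), and by 0.89 (SE 0.11) in DKO larvae, to 17.0 ± 1.6 CPM. The other gene of that name (ENSDARG00000007412) fell by 0.81 (SE 0.11) in DKO larvae, and slc2a11b fell there by 1.14 (SE 0.17). These 4 calls held in every alternative fit. In panx1a-/- larvae SLC2A6 fell by 2.02 (SE 0.44), from a TL level that ran from 2.58 to 11.6 CPM, and the call was lost without TL replicate 1 or 3 or any panx1a-/- library, at -2.39 to -1.36, with the smallest value without TL replicate 1. SLC2A2, the transporter of liver and beta cells in mammals, rose by 0.48 (SE 0.10), a call lost with the replicate block and without TL replicate 1 or 2 or panx1a-/- replicate 2 or 3, at 0.41 to 0.55. edgeR called 0 of 14 transporters in panx1b-/- larvae, beside 5.96% of all genes, with 5 at an unadjusted p under 0.05, and DESeq2 called 1. Of 15 tested in the other lines, 1 rose and 2 fell in panx1a-/- larvae, and 0 rose and 3 fell in DKO larvae. Over all genes 5.18% and 8.09% were regulated in these comparisons.

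Markers of the tissues in which pck1 and gck are expressed, and the clock genes, were measured beside them. Over all genes 5.18% were regulated in panx1a-/-, 5.96% in panx1b-/- and 8.09% in DKO larvae against TL. Of 21 hepatocyte markers 1 rose in panx1a-/- larvae, 2 in panx1b-/- and 4 in DKO larvae, none fell, and their summed level in panx1b-/- larvae, 7097 to 9189 CPM, overlapped that of TL, 6122 to 7526 CPM, on its lower side. Of 20 enterocyte markers 2 rose and 3 fell in panx1a-/- larvae, and 1 rose and 1 fell in each of the other lines. The summed level of the enterocyte markers was 3031 to 3483 CPM in panx1b-/- larvae, above every library of the other lines. It was 2338 to 2806 CPM in TL, 2380 to 2905 CPM in panx1a-/- and 2491 to 2557 CPM in DKO larvae. More clock genes were regulated in the lines that lack panx1b by label than in panx1a-/- larvae. Of 21, 2 rose and 10 fell in panx1b-/- larvae and 3 rose and 9 fell in DKO larvae, against 0 and 1 in panx1a-/- larvae, with sums of 1273 to 1299, 1346 to 1422 and 1776 to 1870 CPM beside 1622 to 1870 CPM in TL. The part of the tissue markers and of the clock genes in the pck1 level was not tested. The paper gives no hour of collection, and its part in the clock gene levels was not tested.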

How the data were processed

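Total RNA of whole larvae was sequenced from directional paired-end libraries. Per the submitters' processing notes, reads were handled with bcl2fastq 2.17, FastQC 0.11.2, Trim Galore 0.4.4, TopHat2 2.0.11 and HTSeq 0.6.1p2 on danRer11. The authors deposited raw counts per Ensembl gene for each library, with no normalization. The strand setting and the annotation release are not given in the sources used here, and the published analysis names transcript estimates, which these gene counts are not.

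The counts were tested in R 4.3.3 with edgeR 4.0.16 (TMM scaling, quasi-likelihood test, Benjamini-Hochberg adjustment over all genes tested). A fit held only the libraries compared, all 12 for the interaction, and genes with at least 1 count in each of its libraries. The cut-offs, an adjusted p under 0.05 and an unadjusted p under 0.001, are those of the study. On simulated counts for panx1b-/- against TL, 168 of 200 genes changed 2-fold were recovered, with 13 false calls among 25268 genes. The changed genes were drawn from those with a mean of at least 1 CPM. gcgb and gck had lower means in both lines, so that recovery does not cover them. ins, at 1.27 CPM in TL and 1.56 CPM in panx1b-/- larvae, lay near that floor, and recovery at its level was not measured separately. DESeq2 1.42.0, other scalings and filters, a replicate block and leaving out each library served as alternatives. Figures were drawn with Python 3.11.15 and matplotlib 3.10.9.

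Replicates are separate pools of larvae. Chi-square per degree of freedom was 2.84 between DKO replicates 2 and 3 and 10.2 to 24.6 between all other pairs of replicates. All lay above sampling noise, so all 12 libraries were kept. DKO replicates 2 and 3 were thus more alike than any other pair, and why was not tested. The labels name no batch. The p-values measure the spread between pools of single lines.

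The 6 genes and all gene lists were chosen with earlier results of these data known. From each list the text names at most 4 regulated genes per comparison, those of largest fold change, for the comparisons with TL, and chosen examples for the others. Beside panx1b and panx1a it names the PANX1 genes, the regulated genes within 10 genes and, chosen after their values were seen, epd and arhgap35b. Gene names came from a table of Ensembl identifiers, which gives some zebrafish pairs 1 shared human symbol, and such pairs are told apart by identifier. Near-identical paralogs can share reads. Gene order, of protein-coding genes only, came from RefSeq GRCz12tu, matched by symbol, which is not the build of the counts, so no coordinates are given. No sequences were printed. 1 gene that is part of the list counts is not reported here.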

Additional observations from a re-analysis of the deposited data

Results flagged for a closer look

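The interaction compares the DKO change against TL with the sum of both single knock-out changes, on the log2 scale. For the genes below other than ins it differed from zero (edgeR adjusted p from 0.000287 to 0.0158). ins had -1.47, a description only. In panx1b's neighbourhood tmprss13b had -1.61 and fxyd2 -0.74, of the same sign as ins. The PANX1 gene ENSDARG00000014910, which the name table does not identify as panx1a or panx1b, had -1.15. Among the genes near panx1a, cldne had -0.96, WDR53 1.02 and rsrc1 0.63. In glucose metabolism the values were positive, at 1.301 for GPI (ENSDARG00000103826), 1.27 for GYG1 (ENSDARG00000059391), 1.06 for LDHB, 0.73 for G6PC1 (ENSDARG00000013721) and 0.68 for fbp1b. Among islet genes kcnj11l had 1.098 and SOX4 (ENSDARG00000098834) -0.68. Leaving out single libraries ended the calls of SOX4 (-0.82 to -0.58 over the alternatives), fbp1b (0.55 to 0.76), fxyd2 (-0.84 to -0.62), rsrc1 (0.58 to 0.74) and, without DKO replicate 2, G6PC1 (0.63 to 0.82). All values use the same 12 libraries.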

How the results depend on the processing

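Over all alternatives no call of a named gene or of the 6 genes turned its direction. Of 1404 refits of 103 called changes in the lists and beside panx1b and panx1a, 1188 stayed past both cut-offs. With the adjusted p alone as the cut-off the counts of regulated genes grew to 2214 in panx1a-/-, 2744 in panx1b-/- and 4320 in DKO larvae against TL, 3140 in DKO against panx1a-/-, 4551 in DKO against panx1b-/- and 2249 for the interaction, from 1294, 1482, 2015, 1583, 2312 and 1292. Leaving out 1 library gave 779 to 1451, 875 to 1632, 1109 to 2729, 880 to 1972, 1441 to 2073 and 996 to 1326, lowest without TL replicate 3 for the comparisons with TL and without DKO replicate 3 for DKO against either single knock-out. Same-numbered libraries did not deviate together in every pair of lines (r from -0.19 to 0.35). Replicate 1 was closest to its own number between panx1b-/- and TL (r = 0.30), DKO and TL (0.19) and DKO and panx1b-/- larvae (0.35). So was replicate 3 between DKO and panx1b-/- larvae (0.27), and no replicate of panx1a-/- larvae was. The numbers were thus not taken as pairs in the main fits. With the replicate block the counts were 1078, 1665, 2361, 1393, 3240 and 1443. Depth limits ins (22 to 75 counts), gck (10 to 43) and gcgb (4 to 28) most.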
